A study of Mus musculus with 4 samples.

Results

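The genes described here are 10 genes of retinoic acid metabolism and reception, taken by symbol: *Aldh1a1*, *Aldh1a2*, *Aldh1a3*, *Cyp26a1*, *Cyp26b1*, *Crabp1*, *Crabp2*, *Rara*, *Rarb*, and *Rarg*. They are 10 of the 23946 symbols listed in each library, and all 10 were found. RNA came from CD51+;CD200+ cells, a population enriched for skeletal stem and progenitor cells, which were sorted by FACS from wild type CD-1 mice at postnatal day 3. Cells were taken from the posterior frontal (PF) suture, which closes early in life in the mouse, from the sagittal (SAG) and coronal (COR) sutures, which stay patent, and from the growth plate (GP) of the tibia, the reference. The suture dissection took in the bone fronts, suture mesenchyme, dura mater, and periosteum, and cells with markers of blood and endothelium were gated out. Each tissue gave 1 library from pooled mice, so there was no replicate error and no test between tissues was possible. Values are FPKM, fragments scaled by transcript length and by library size, which can be compared between genes because they are given per length.

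Retinoic acid is made from vitamin A. Retinol is oxidized to retinaldehyde, the Aldh1a enzymes oxidize retinaldehyde to retinoic acid, and the Cyp26 enzymes degrade retinoic acid. Inside the cell it is bound by the Crabp proteins, and in the nucleus it binds the receptors Rara, Rarb, and Rarg, which act on DNA as partners of the Rxr receptors. *Rarb* and *Cyp26a1* are known for their own induction by retinoic acid, and both an excess of retinoic acid and a loss of its degradation are known to disturb skull and limb skeletons.

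Receptors bind direct repeats of a hexamer, here AGGTCA or AGTTCA or GGGTCA or GGTTCA, spaced by 1, 2, or 5 bases (DR1, DR2, DR5). These repeats were searched on both strands from 250 bases before to 50 bases after each start site, in RefSeq windows of build GRCm38.p6. Windows were held for 8 of the 10 genes, 13 windows in all, but not for *Aldh1a3* and *Crabp2*. A repeat was found for 2 of the 8 genes, *Rarb* and *Cyp26a1*, and in both it was a DR5. A DR5 was present in 32 of 32851 windows of all genes, which is 0.0974%, or in 31 of 27025 genes. A DR1 was present in 0.222% of windows and a DR2 in 0.268%, and none lay in a window of these genes. For the other windows this says only that these letters were not found. The 120 bases just before the start sites of *Rarb* (chr14:16575477-16575596, minus strand) and *Cyp26a1* (chr19:37697688-37697807, plus strand) are shown because they hold the repeats, whose hexamers are in capitals and which are given 5′ to 3′ along the gene:
Rarb: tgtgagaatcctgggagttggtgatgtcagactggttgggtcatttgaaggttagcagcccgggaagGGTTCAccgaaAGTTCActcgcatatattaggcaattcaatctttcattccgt
Cyp26a1: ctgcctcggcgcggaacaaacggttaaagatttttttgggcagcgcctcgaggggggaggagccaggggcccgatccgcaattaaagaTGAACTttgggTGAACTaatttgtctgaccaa

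In *Rarb* the repeat, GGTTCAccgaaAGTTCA, runs with the gene from 53 to 37 bases before the start. In *Cyp26a1* it is read on the opposite strand as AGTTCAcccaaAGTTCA and lies from 32 to 16 bases before the start. The second hexamer and its spacing were thus the same in both genes. A match is a description of the letters and was not set against any measure of binding. The levels of these 2 genes, given below, were highest in different libraries, *Rarb* in PF and *Cyp26a1* in GP.

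FPKM of 1 or more was listed for between 11402 and 12263 symbols per library. Multiplying FPKM by transcript length gives values that move in steps of 1 fragment, and these steps were read in 8095 genes with a single coding transcript. By this estimate the depth, in units of 1e6 fragments, was lowest in PF at 17.0 and was 32.0 in GP, 33.8 in COR, and 38.4 in SAG. Genes of the sorted population were present: all 7 of the skeletal progenitor list, which includes *Itgav* for CD51 and *Cd200*, reached 1 FPKM in every library. Genes of other cells were not spread evenly. The summed level of 6 choroid plexus genes was 5346 FPKM in SAG, 483 in PF, 147 in COR, and 10.8 in GP, and that of 6 chondrocyte genes was 3690 FPKM in SAG, 2398 in GP, 133 in PF, and 106 in COR. For 5 osteoblast genes the sum was 3491 FPKM in COR, 1281 in GP, 1063 in PF, and 260.3 in SAG. PF had the highest sums of 4 leukocyte genes, at 34.4 FPKM against 5.44 to 10.7 elsewhere, and of 3 erythroid genes, at 15.5 against 1.69 to 1.89. Most of the leukocyte sum in PF was *Lyz2*, at 30.2 FPKM. Of the 4 leukocyte genes 3 were highest in PF, and *Csf1r* was lowest there, at 0.0593 FPKM against 0.797 in COR. For 4 endothelium genes the sum was 16.3 FPKM in SAG, 4.22 in PF, 1.08 in COR, and 0.358 in GP. Most of it in SAG was *Kdr*, at 14.9 FPKM, and 2 of these genes were highest in SAG and 2 in PF. The part of these cells in the results below was not tested. In bulk RNA, fewer cells of a type and less RNA per cell cannot be told apart.

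**Figure D1:**
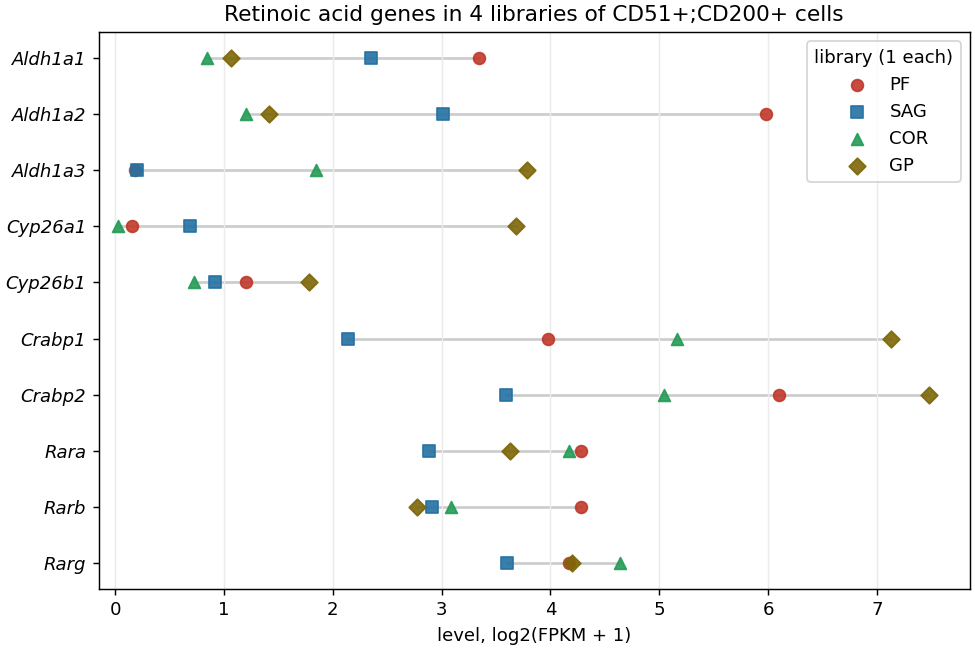
Levels of the 10 genes as log2(FPKM + 1), 1 point per library and gene, with grey lines joining the lowest and highest library. *Aldh1a2* lies far to the right in PF, at 62.1 FPKM, whereas *Aldh1a3*, *Cyp26a1*, *Crabp1*, and *Crabp2* lie farthest right in GP, and the receptor genes span the shortest distances together with *Cyp26b1*.

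The synthesis enzymes differed by suture. *Aldh1a2*, the main retinoic acid synthesizing enzyme of the embryo (mm9 chromosome 9, 71063596 to 71144050), reached 62.1 FPKM in PF and 7.09 in SAG, against 1.30 in COR and 1.66 in GP. PF stood apart from the 3 other libraries, SAG was next, and COR and GP lay close together. Each ratio is a difference of log2(FPKM + 1) values, a scale that shrinks the distance between low values, and a ratio of 3-fold (1.58 on this scale) or more was counted as different. The log2 ratio of *Aldh1a2* was 4.78 for PF vs COR, 4.57 for PF vs GP, and 2.97 for PF vs SAG. It was the single gene of the 10 that was at least 3-fold higher in PF than in each other library, compared with 2.69% of 13998 genes at 1 FPKM or more in a library. The estimated number of fragments behind it was 2392 in PF and 99.5 in COR, so the low values rest on many fragments. It was also at least 3-fold higher in SAG than in COR and GP, with log2 ratios of -1.81 for COR vs SAG and 1.60 for SAG vs GP. With quantile normalization both were inside 3-fold, at -1.56 and 1.51.

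*Aldh1a1*, a synthesis enzyme with a known role in many adult tissues (chromosome 19, 20676451 to 20717952), reached 9.18 FPKM in PF and 4.09 in SAG, against 0.790 in COR and 1.09 in GP. The order of the libraries was that of *Aldh1a2*, with a smaller distance between PF and SAG. The log2 ratio was 2.51 for PF vs COR and 2.28 for PF vs GP, both past 3-fold, and 1.0 for PF vs SAG, which was not. With a pseudocount of 0.1, COR vs SAG (-2.23) and SAG vs GP (1.81) also passed 3-fold. Its close paralog *Aldh1a7*, with which reads could be shared, was listed at 0.310 FPKM or less in every library.

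*Aldh1a3*, the third enzyme of the family (chromosome 7, 73535778 to 73572403), had the opposite distribution, at 12.7 FPKM in GP, 2.60 in COR, 0.150 in SAG, and 0.135 in PF. GP stood above every suture, COR lay between, and PF and SAG were both near the lower end, with an estimated 7.89 fragments in PF and 19.8 in SAG. The log2 ratio was -1.93 for COR vs GP, -3.58 for SAG vs GP, and -3.60 for PF vs GP. Among the sutures it was 1.64 for COR vs SAG and -1.66 for PF vs COR, both just past 3-fold, and after the correction for GC content COR vs SAG was 1.58, just inside it.

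The 3 genes therefore took different shares of the summed *Aldh1a* level, in FPKM. The sum was 71.5 FPKM in PF, 15.5 in GP, 11.3 in SAG, and 4.69 in COR. *Aldh1a2* made up 87.0% of it in PF and 62.6% in SAG, while *Aldh1a3* made up 55.4% in COR and 82.2% in GP. *Aldh1a1* was never the leading enzyme, and its share was largest in SAG, at 36.1%.

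*Aldh1a2* is known to be expressed in meninges. Genes of the meninges, when summed, were higher in PF and SAG than in COR and GP, as *Aldh1a2* was. Of a list of 10 such genes, which does not include *Aldh1a2*, 7 reached 1 FPKM in PF, 6 each in SAG and COR, and 2 in GP. Their summed level was 232 FPKM in PF and 201 in SAG, against 77.5 in COR and 28.2 in GP. The FPKM ratio of PF to SAG was 1.16 for this sum and 8.77 for *Aldh1a2*. The ratio of the sums depends much on a single gene, *Ptgds*. Within the list, 5 genes were highest in PF, 3 in SAG, and 1 in COR. *Foxd1* was at 135 FPKM in PF and 52.3 in SAG, and *Foxc1*, which skull mesenchyme also expresses, at 62.4 and 47.8. *Ptgds*, a defining gene of the arachnoid, was at 12.7 FPKM in PF and 91.3 in SAG, a large part of the SAG sum of 201 FPKM. The transporter genes *Slc6a13* and *Slc22a6* were below 0.23 FPKM in every library, and *Slc22a6* was listed at 0 in all 4. The part of meningeal RNA in the level of *Aldh1a2* was not tested.

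**Figure D2:**
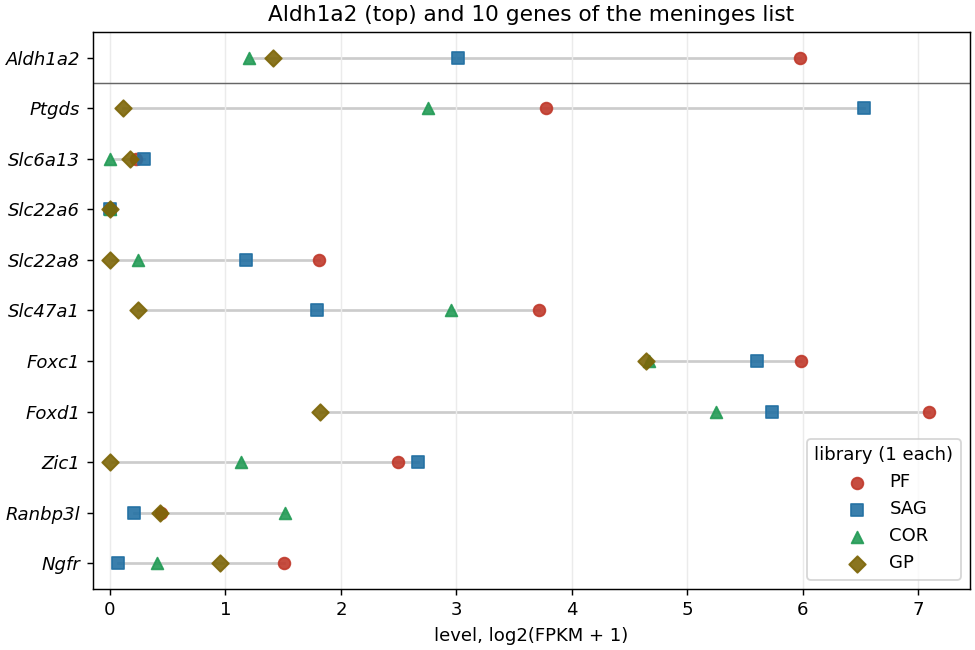
Level of *Aldh1a2* (top row) and of 10 genes of the meninges list, as log2(FPKM + 1), 1 point per library. *Aldh1a2*, *Foxd1*, *Foxc1*, *Slc47a1*, *Slc22a8*, and *Ngfr* are highest in PF, *Ptgds* is highest in SAG at 91.3 FPKM, and *Slc22a6* is at 0 throughout.

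The degrading enzymes were low in the sutures. *Cyp26a1* (chromosome 19, 37772298 to 37776018) was at 11.9 FPKM in GP, 0.609 in SAG, 0.114 in PF, and 0.0186 in COR. It was above 1 FPKM in GP alone, with log2 ratios of -3.00 for SAG vs GP, -3.53 for PF vs GP, and -3.66 for COR vs GP. The value in COR corresponds to an estimated 1.12 fragments and that in PF to 3.42, compared with 675 in GP, so the order among PF and COR rests on a few fragments and no ratio between sutures is read. *Cyp26b1*, the family member with known mutations in human skull and limb malformation (chromosome 6, 84521938 to 84543740), was at 2.43 FPKM in GP, 1.30 in PF, 0.885 in SAG, and 0.658 in COR. On the log2(FPKM + 1) scale its libraries were within 3-fold of each other in all 6 pairs, and COR vs GP was widest at -1.05. With a pseudocount of 0.1 in place of 1, that ratio was -1.74 and passed 3-fold. In the sutures *Cyp26b1* was the larger part of the summed *Cyp26* level, from 59.2% in SAG to 97.2% in COR, whereas *Cyp26a1* was 83.0% of it in GP.

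Set side by side, the summed *Aldh1a* level was 50.7 times the summed *Cyp26* level in PF, against 1.08 times in GP, with SAG at 7.58 and COR at 6.93 times. The *Cyp26* sum is of *Cyp26a1* and *Cyp26b1* and leaves out *Cyp26c1*, at 0.195 FPKM in PF and 0.0674 in GP. Including it would lower the ratios of PF and GP. These are ratios of transcript levels in FPKM and do not measure enzyme activity or retinoic acid. The high ratio in PF came with the high *Aldh1a2*, and the *Cyp26* sums of PF and SAG were close, at 1.41 and 1.49 FPKM. In GP the *Cyp26* sum was 14.3 FPKM.

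**Figure D3:**
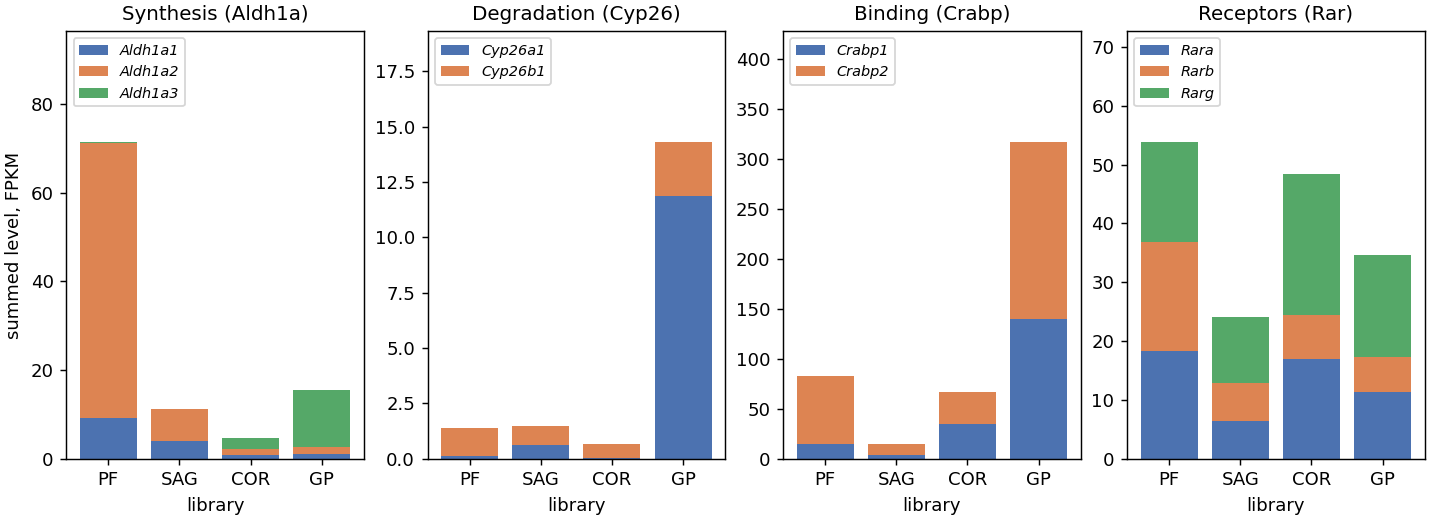
Summed FPKM of each gene family in the 4 libraries, with the members stacked and a separate vertical scale from 0 for each family. The *Aldh1a* sum is highest in PF (71.5 FPKM, mostly *Aldh1a2*), the *Cyp26* and *Crabp* sums are highest in GP (14.3 and 317 FPKM), and the *Rar* sums range from 24.1 in SAG to 53.8 in PF.

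The genes of the binding proteins had the highest levels of the 10 in GP and the lowest of their own in SAG. *Crabp1*, which is known to hold retinoic acid in the cytoplasm (chromosome 9, 54612555 to 54620917), was at 139 FPKM in GP, 34.9 in COR, 14.8 in PF, and 3.40 in SAG. The 4 libraries were spread, with GP at the top and SAG at the bottom. The log2 ratio was -1.97 for COR vs GP, -3.15 for PF vs GP, and -5.00 for SAG vs GP. Among the sutures it was 3.03 for COR vs SAG and 1.84 for PF vs SAG, and it was -1.19 for PF vs COR, inside 3-fold. *Crabp1* was the single gene of the 10 at least 3-fold lower in SAG than in each other library, compared with 0.636% of all genes tested, although after a correction for GC content the PF vs SAG ratio was 1.28 and it no longer met this count.

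*Crabp2*, known to carry retinoic acid to the receptors (chromosome 3, 87752588 to 87757298), was at 177 FPKM in GP, 67.7 in PF, 31.9 in COR, and 11 in SAG. GP and SAG were again the extremes, but PF lay above COR, the reverse of *Crabp1*. The log2 ratio was -2.44 for COR vs GP, -3.89 for SAG vs GP, and 2.51 for PF vs SAG, all past 3-fold. That for PF vs GP was -1.38, so *Crabp2* did not count as higher in GP than in every suture. *Crabp1* and *Crabp2* were at similar FPKM in COR, where *Crabp1* made up 52.3% of their sum, and in GP, where it made up 44.0%. In PF and SAG *Crabp2* was the larger part, at 82.1% and 76.4%.

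The osteoblast list was lowest in SAG, at 260.3 FPKM, as *Crabp1* and *Crabp2* were, and was highest in COR. The chondrocyte list was high in both GP and SAG. Markers of skeletal muscle summed to at most 1.57 FPKM in any library. The 3 epidermal genes summed to between 6.90 FPKM in GP and 12.6 in PF, most of it *Krt10*, and the keratin gene *Krt14* was listed at 0 in the sutures and at 0.136 FPKM in GP. The part of these cell types in the levels of the binding proteins was not tested.

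The receptor genes were present in every library with smaller differences. *Rara* (chromosome 11, 98789132 to 98836256) reached 18.4 FPKM in PF, 17.0 in COR, 11.4 in GP, and 6.40 in SAG. *Rarg* (chromosome 15, 102065369 to 102087948) was at 23.9 FPKM in COR, 17.4 in GP, 17.0 in PF, and 11.2 in SAG. Both were lowest in SAG, and neither passed 3-fold in any of the 6 pairs. After the correction for GC content, the PF vs SAG log2 ratio of *Rarg* was -0.06 in place of 0.57. That of *Rara* was 0.74 in place of 1.39. For *Rara* the order of PF and COR, and for *Rarg* that of GP and PF, rests on differences of 0.11 and 0.03 on the log2 scale. *Rarb*, the receptor gene with the DR5 shown above (chromosome 14, 17263356 to 17651381), reached 18.4 FPKM in PF, 7.52 in COR, 6.51 in SAG, and 5.86 in GP. PF stood above the other libraries, which lay close together. The log2 ratio was 1.37 for PF vs SAG, 1.5 for PF vs GP, and 1.19 for PF vs COR, each inside 3-fold. PF vs GP passed it at 1.64 with a pseudocount of 0.1 and, also at 1.64, after the correction for GC content.

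As shares of the summed *Rar* level, the 3 receptors were nearly even in PF, at 34.2% for *Rara*, 34.2% for *Rarb*, and 31.6% for *Rarg*. In the other libraries *Rarg* was the largest, from 46.4% in SAG to 50.3% in GP, and *Rarb* made up 15.5% in COR, 16.9% in GP, and 27.1% in SAG. The sum was 53.8 FPKM in PF, 48.4 in COR, 34.6 in GP, and 24.1 in SAG.

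Between pairs of libraries, the counts were as follows. For PF vs SAG, 3 of 10 genes were at least 3-fold apart (*Aldh1a2*, *Crabp1*, and *Crabp2*, all higher in PF), compared with 15.7% of 13490 genes, and 8 of the 10 had passed the filter of 1 FPKM in at least 1 of the libraries. For PF vs COR it was 3 of 10, of which 9 had passed the filter, compared with 11.7% of all genes that passed it. *Aldh1a1* and *Aldh1a2* were higher and *Aldh1a3* lower in PF. For COR vs SAG it was 3 of 10, of which 8 had passed the filter, compared with 9.25% of all genes that passed it. *Aldh1a3* and *Crabp1* were higher and *Aldh1a2* lower in COR. The share among the 10 genes was thus above that of all genes in each suture pair, but each count is of 3 genes.

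In the pairs with GP the counts were 5 of 10 for PF, compared with 12% of all genes, 5 of 10 for SAG, compared with 8.66%, and 4 of 10 for COR, compared with 4.4%. All 10 genes passed the filter in these pairs. The genes lower in the suture were *Aldh1a3*, *Cyp26a1*, and *Crabp1* in all 3 pairs and *Crabp2* in those with SAG and COR, while *Aldh1a2* was higher in PF and SAG and *Aldh1a1* in PF. The 3 pairs share the GP library and are not independent. The genes *Aldh1a3*, *Cyp26a1*, and *Crabp1*, 3 of the 10, were at least 3-fold higher in GP than in each suture, compared with 0.979% of 13998 genes. *Cyp26a1* was below 1 FPKM in every suture and *Aldh1a3* in PF and SAG, so in those pairs they passed the filter through GP alone. Where every library had to reach 1 FPKM, the count was 1, and the share of all genes was not computed.

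The median log2 ratio of the genes that passed the filter was 0.47 for PF vs COR, 1.16 for COR vs SAG, and 1.38 for PF vs SAG, beside 0.05, -0.02, and 0.03 over all genes tested. Against GP it was -0.30 for PF, -0.80 for SAG, and -0.64 for COR, beside 0.03, 0.03, and 0.02. None of the 10 was at least 3-fold higher in SAG or COR, or lower in PF, COR, or GP, than in each other library. These directions held 2.85% and 0.4%, and 2.09%, 0.236%, and 0.257%, of all genes tested.

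**Figure D4:**
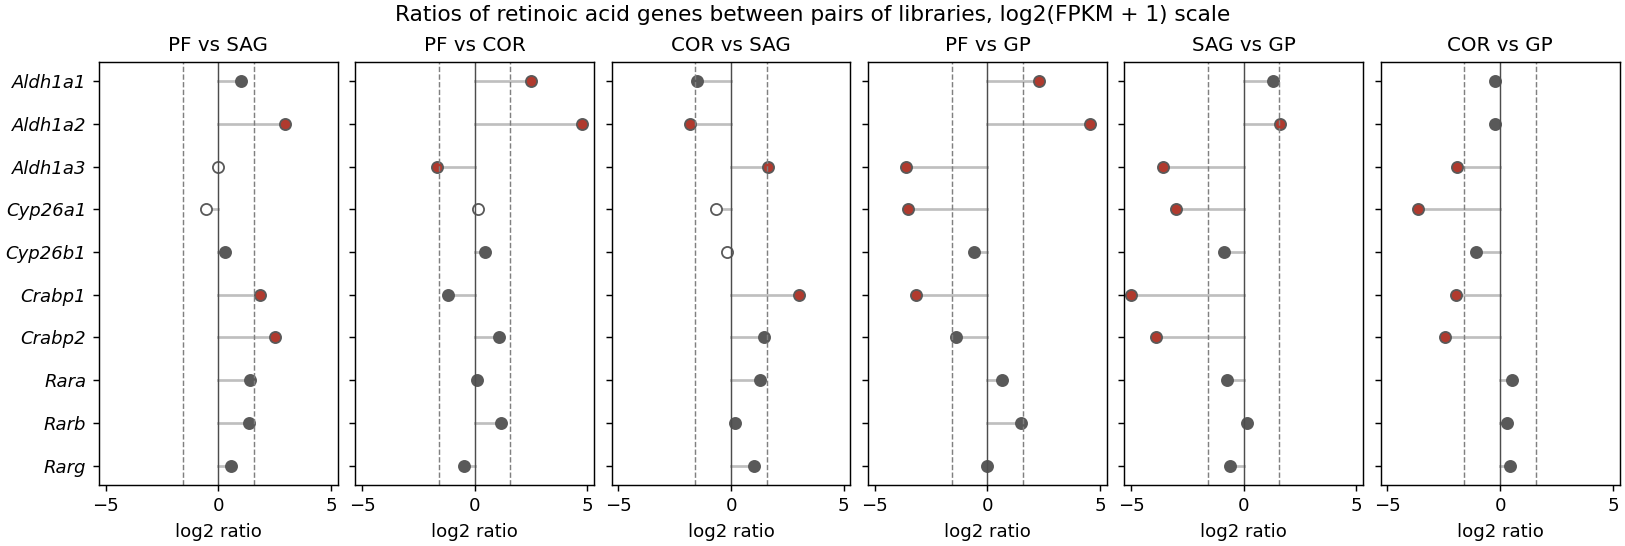
Log2 ratio of each gene in the 6 pairs of libraries, on the log2(FPKM + 1) scale, with dashed lines at 3-fold. Red points are at least 3-fold apart, grey points are not, and open points are below 1 FPKM in both libraries of the pair. The receptors and *Cyp26b1* stay between the dashed lines in all pairs on this scale, though *Rarb* in PF vs GP and *Cyp26b1* in COR vs GP pass 3-fold with a pseudocount of 0.1.

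The rest of the retinoid pathway was read from 27 other genes in 3 lists that overlap in a few genes. Of these, 22 reached 1 FPKM in a library, 7 were at least 3-fold apart in a pair, and 5 of those were at 5 FPKM or more in the higher library. Of 9 genes of retinol uptake, storage, and oxidation, 2 were at least 3-fold above SAG in PF and 0 were below it, with a median log2 ratio of 0.70 beside 0.03 for all genes. The higher and lower counts were 1 and 1 for COR vs SAG, 1 and 1 for PF vs GP, 1 and 2 for SAG vs GP, 0 and 1 for COR vs GP, and 0 in either direction for PF vs COR. These counts are of 7 or 9 genes that passed the filter, and the shares of all genes were 15.7% for PF vs SAG, 9.25% for COR vs SAG, 12% for PF vs GP, 8.66% for SAG vs GP, and 4.4% for COR vs GP. *Rbp4*, the retinol carrier of plasma, was at 578 FPKM in GP, 190 in COR, 175 in PF, and 72.1 in SAG, and passed 3-fold in each pair with GP. Like *Crabp1*, it was highest in GP and lowest in SAG.

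The alcohol dehydrogenase genes *Adh1* and *Adh7*, whose enzymes can oxidize retinol, were both lowest in SAG. *Adh1* was at 9.59 FPKM in PF and 2.0 in SAG, against 3.19 in COR and 2.57 in GP. *Adh7* was highest in COR at 10.1 FPKM, with 6.10 in GP, 5.3 in PF, and 0.810 in SAG, and it was at least 3-fold lower in SAG than in each other library. *Rdh10*, the known main retinol dehydrogenase of the embryo, was at 11.8 FPKM in PF, 9.03 in GP, 6.38 in SAG, and 5.93 in COR. *Dhrs3*, which reduces retinaldehyde back to retinol, reached 55.9 FPKM in PF, 44.0 in SAG, 41.0 in GP, and 18.6 in COR. Neither *Rdh10* nor *Dhrs3* passed 3-fold in any pair, and these genes were named after their values were seen.

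A list of 10 genes, mostly partners and cofactors of the receptors, also held the degrading enzyme gene *Cyp26c1*. It was at 0.195 FPKM in PF, at 0.0674 in GP, and at 0 in SAG and COR. Of this list, 9 genes, all but *Cyp26c1*, passed the filter in each pair. Only 1 passed 3-fold, in PF vs GP alone, where 12% of all genes tested did, and 1 of 9 genes is near that share. The gene was *Fabp5*, a fatty acid binding protein that can also carry retinoic acid. It was at 41.8 FPKM in PF and 113 in SAG, against 80.6 in COR and 136 in GP. The corepressor gene *Ncor1* was nearly level, from 41.9 FPKM in PF to 47.4 in GP. *Rxra*, a partner receptor, was at 26.8 FPKM in PF and 8.51 in SAG, against 15.5 in COR and 11.5 in GP, highest in PF and lowest in SAG as *Rara* was. The choice of *Ncor1* and *Rxra* likewise followed from their values.

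Of 10 other genes known as targets of retinoic acid, 6 passed the filter in each pair. In PF, 1 was at least 3-fold higher than in SAG, 1 than in COR, and 2 than in GP, and 0 were lower. Over all genes 15.7%, 11.7%, and 12% were that far apart in either direction in these pairs. In the pairs with SAG and COR, 1 of 6 genes is near that share. In the pair with GP, 2 of 6 is above it, but the count is of 2 genes, *Rarres2* and *Stra6*. The median log2 ratio was 1.05 for PF vs COR, 0.41 for PF vs GP, and 0.28 for PF vs SAG, beside 0.05, 0.03, and 0.03 for all genes. It was -0.69 for COR vs GP, -0.26 for COR vs SAG, and -0.07 for SAG vs GP, beside 0.02, -0.02, and 0.03. The larger ratio for PF vs COR thus came with low values in COR as well. *Rarres2*, which encodes the secreted protein chemerin, was at 187 FPKM in PF and 27.5 in SAG, against 43.5 in COR and 54.3 in GP, past 3-fold in each pair with PF. *Hoxb1* and *Cdx1*, target genes of the early embryo, were listed at 0 in all 4 libraries.

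**Figure D5:**
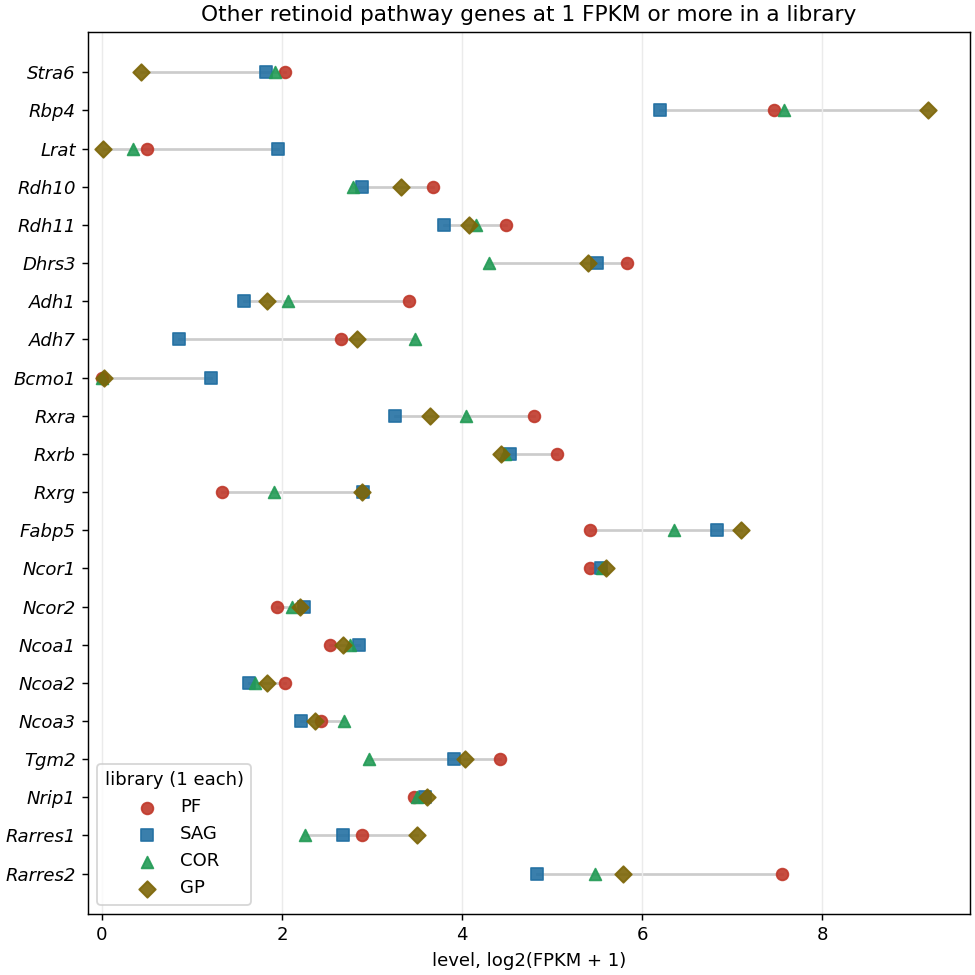
Levels of the 22 other retinoid pathway genes that reached 1 FPKM in a library, as log2(FPKM + 1), 1 point per library. *Rbp4* is highest in GP at 578 FPKM, *Rarres2* is highest in PF at 187 FPKM, and the cofactor genes *Ncor1* to *Ncoa3* and the target gene *Nrip1* have their 4 points close together.

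Profiles over the 4 libraries were compared with those of 9801 other symbols at 5 FPKM or more in a library, by the Euclidean distance of mean-centred log2(FPKM + 1) values. With 4 libraries such likeness describes these libraries only. Nearest to *Aldh1a2* were *Cntfr*, *Smoc1*, and *Scg2*, at distances of 1.03, 1.14, and 1.24. No symbol lay within 0.5 of it, nor of *Aldh1a3* or *Crabp1*. Nearest to *Aldh1a1* was *Mdk*, at 0.24, followed by *Cobl* and *Car11*, and 15 symbols lay within 0.5. Nearest to *Cyp26a1* were *Il17b* at 0.23, *Fabp4*, and *Rasgef1c*. *Il17b* was at 15.5 FPKM in GP and at 0.818 or less in each suture.

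Nearest to *Aldh1a3* were *Klhl30* at 0.58, *Tnfaip8l3*, and *Tnni2*, and nearest to *Crabp1* were *Inhba* at 0.89, *Scube2*, and *Otor*. *Inhba*, which encodes the activin A subunit, was at 229 FPKM in GP, 31.1 in COR, 13.1 in PF, and 2.15 in SAG, in the order seen for *Crabp1*. Nearest to *Crabp2* were *Spon2* at 0.33, *Cilp2*, and *Fst*, the follistatin gene. *Fst* was at 20.1 FPKM in GP, 7.21 in PF, 2.21 in COR, and 0.724 in SAG.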

How the data were processed

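RNA of CD51+;CD200+ cells from 4 tissues was sequenced as 1 library each. The authors aligned reads to mm9 using STAR 2.5.1b and estimated FPKM per symbol with Cuffdiff of Cufflinks 2.2.1 and an Illumina iGenomes gene model. The deposited FPKM values were used as given. How Cuffdiff scaled libraries is not given in the sources used here. The cDNA kit named in the study marks no strand.

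Groups came from the sample titles. Ratios were differences of log2(FPKM + 1) for genes that reached 1 FPKM in either library of a pair, and 3-fold or more was counted as different. There were no replicates and no p-values. The genes, lists, and comparisons were chosen with earlier results of these data known. Of the 3 lists of other retinoid genes, those at least 3-fold apart in a pair and at 5 FPKM or more in the higher library were named, and for each of the 10 genes that met the same limits the 3 most alike profiles. In these lists 1 gene is not reported here and was left out of the counts. Marker lists of 12 cell types were fixed with them.

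Gene positions, transcript lengths, and GC content were read from a GENCODE annotation on mm9, with coding transcripts for 80.8% of symbols and all 10 genes. Promoter windows came from RefSeq, build GRCm38.p6. *Rara* overlaps an annotated snRNA gene over 107 bases, and no other of the 10 overlaps another gene. The estimated fragments take FPKM as proportional to fragments divided by transcript length. Amplified cDNA without molecular identifiers does not give independent molecules. The alternatives are a pseudocount of 0.1, median-ratio scaling, quantile normalization, other filters, 2-fold, and a loess correction for GC content (span 0.3). Tools were pandas 2.3.3, numpy 2.4.6, statsmodels 0.14.6, and matplotlib 3.10.9 in Python 3.11.15. The counting was tested on simulated data, with changes well past 3-fold in genes of higher FPKM only. That test says nothing about genes at low FPKM or ratios near 3-fold.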

Additional observations from a re-analysis of the deposited data

How the results depend on the processing

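Of 360 ratios of single genes under the alternatives, 351 stayed on the same side of 3-fold, 4 fell inside it, 5 passed it, and 0 called ratios changed sign. The other filters leave a ratio as it is, so the 55, 44, and 41 ratios counted under them could not move. Of 55 ratios each, 51 stayed with a pseudocount of 0.1, 52 with GC correction, 53 with quantile normalization, and 55 with median-ratio scaling. The counts depended more on the size counted and on low values. At 2-fold the counts were 7 for COR vs SAG and 6 each for PF vs SAG and PF vs COR. Over all genes tested, 2553 of 12720, 4684 of 13490, and 3777 of 12853 were that far apart in these pairs. Also at 2-fold, 3 genes were higher in PF and 2 lower in SAG than in each other library. For counts against each other library, the share of all genes was not computed under the alternatives. Where every library had to reach 1 FPKM, the counts were 1 for PF vs COR, 3 for PF vs GP, and 3 for SAG vs GP. Over all genes that met this filter, 610 of 10375, 594 of 10514, and 519 of 11123 were at least 3-fold apart in these pairs. In that setting 1 gene was higher in GP than in each suture. The counts of the 10 genes fell because *Aldh1a3*, *Cyp26a1*, or *Aldh1a1* is below 1 FPKM in a library. With GC content corrected, the gene lower in SAG than in each other library was lost, leaving 0. Without the SAG library 2 genes were higher in PF than in each other library, and without PF or without COR 2 were lower in SAG. These counts against each other library and their alternatives were chosen after the data were seen. The ratios that crossed 3-fold are given beside each gene. The cause was not tested. No paired analysis was possible because there is 1 library a tissue. Depth limits *Cyp26a1* in PF and COR and *Aldh1a3* in PF, each resting on few fragments.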

Other observations

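*Lrat*, which esterifies retinol for storage, was at 2.86 FPKM in SAG, 0.410 in PF, 0.270 in COR, and 0.00580 in GP. *Bcmo1*, which cleaves beta-carotene to retinaldehyde, was at 1.32 FPKM in SAG, 0.0121 in GP, and listed at 0 in PF and COR. Both were below the limit for named genes, so their choice followed from their values. The summed level of 5 pineal or photoreceptor genes was likewise highest in SAG, at 76.8 FPKM, while it was 0.625 in GP, 1.62 in COR, and 5.59 in PF, and its part in these values was not tested.

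*Stra6*, the membrane receptor for retinol uptake, was at 3.09 FPKM in PF and 2.53 in SAG, against 2.79 in COR and 0.35 in GP, so that the sutures were close together and GP was lower, with a PF vs GP distance of 1.60 on the log2 scale. It was also picked after its values were seen.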
